A study of Mus musculus with 24 samples.

Results

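The genes of 9 neutrophil and granule proteins were followed in the perigonadal fat of AdipoQ-LPL and Control mice. They were Prtn3, Elane, Mpo, S100a8, S100a9, Ngp, Camp, Ltf and Lcn2, taken by gene symbol, and each was measured by 1 transcript cluster, the set of probes that an array assigns to a gene. They are 9 of the 24647 gene symbols on the array. The AdipoQ-LPL group held 12 male mice of genotype AdipoQ-LpL -/+, which carry a transgene that drives lipoprotein lipase (LPL) from the adiponectin promoter, a promoter active in adipocytes. The Control group held 12 male littermates of genotype AdipoQ-LpL -/-. All 24 mice were of the C57BL/6 background, entered calorimetry chambers at 9.5 weeks of age, and were fed a diet with 60% of calories from fat for 10 days. RNA of each mouse was run on its own Affymetrix mouse exon array. Values are log2 intensities normalized by robust multi-array averaging (RMA), and mice are named by genotype and replicate number. Differences are on the log2 scale, with the Control mean subtracted from the AdipoQ-LPL mean.

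Neutrophils are short-lived white blood cells that carry their weapons in granules made at successive stages in the bone marrow. Primary granules form first and hold myeloperoxidase and serine proteases, and secondary granules form later and hold lactoferrin, lipocalin 2 and the cathelicidin. Granule protein mRNA is made mostly by precursors in the marrow, while mature neutrophils in tissue keep abundant mRNA of S100a8 and S100a9, the subunits of calprotectin. In fat, neutrophils are among the first white cells to enter when a high fat diet begins, and lipocalin 2 is also made by cells other than neutrophils, adipocytes and epithelial cells among them.

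The animal numbers in the sample labels fall into a first run, from 289 to 437, and a second run, from 842 to 877. The first run held 8 AdipoQ-LPL and 5 Control mice with array medians of 6.86 to 6.97, and the second held 4 AdipoQ-LPL and 7 Control mice with medians of 7.22 to 7.29. The labels do not say what separates the runs, and 82.9% of the 20208 clusters tested differed between them, so each difference is given over all mice, with the run as a block, and within each run. AdipoQ-LPL mice 7 to 12, numbered 422 to 437, had no Control mice in that stretch of numbers. Lpl averaged 13.53 ± 0.18 in AdipoQ-LPL mice and 13.62 ± 0.15 in Control mice (SD, n = 12 each), and the sources used here do not state whether the Lpl probes cover the transgene, so the value is no check of the labels. Each array is a separate mouse, and in whole fat fewer cells of a type and less RNA per cell cannot be told apart.

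The defining genes of mature neutrophils were low in this fat. Ly6g, the surface antigen used to sort mouse neutrophils, lay between 3.17 and 4.61 in all mice, under the mean of 5 that was set as the floor for testing. The formyl peptide receptors Fpr1 and Fpr2, which sense bacterial peptides, reached 4.41 and 4.34 at most. Of 34 genes in 5 neutrophil lists (primary, secondary and tertiary granules, cytosolic S100 proteins and stefins, and mature neutrophil surface), 15 had mean values under the floor, and 6 were below it in every mouse. Csf3r and Cxcr2, receptors for the growth factor and the chemokines of neutrophils, passed the floor, at 6.13 to 7.12 and 5.53 to 6.81. All 6 macrophage genes passed it, among them Csf1r at 9.55 to 10.67 and Cd68 at 9.89 to 11.47. Levels of different clusters depend on their probes and are not ranked here against each other.

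**Figure D1:**
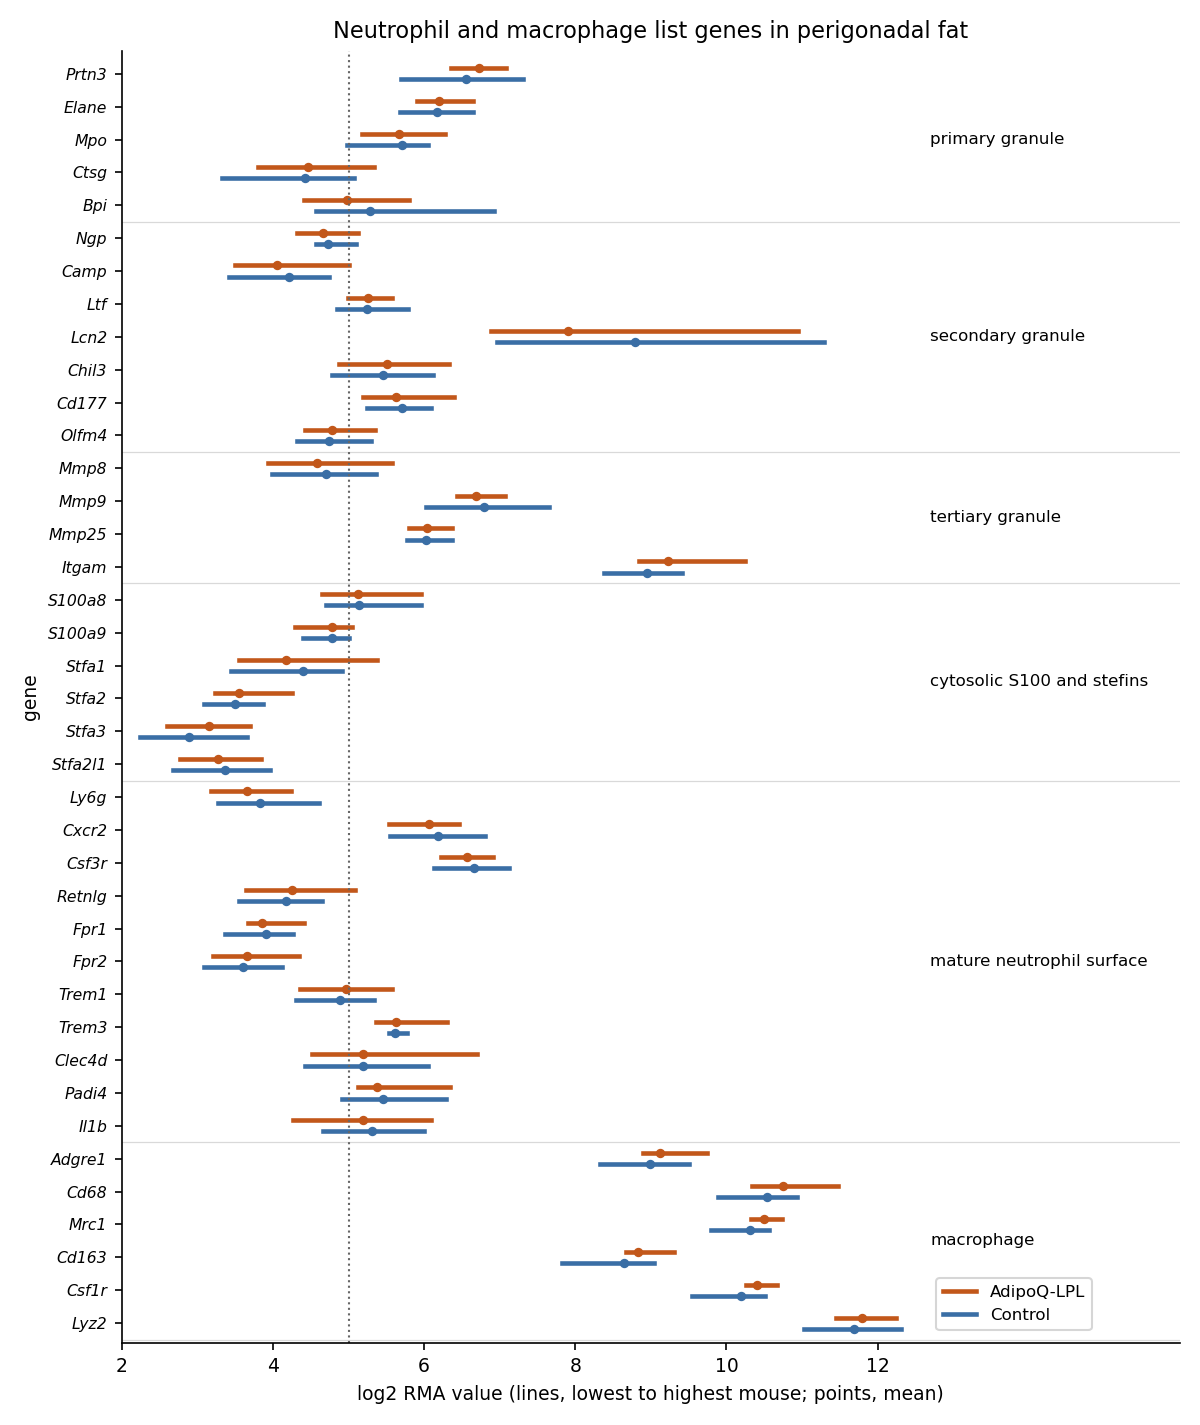
Log2 RMA values (horizontal axis) of genes from 5 neutrophil lists and a macrophage list. Lines run from the lowest to the highest of 12 mice in each genotype, points are means, and the dotted line is the floor of 5. Ly6g, Fpr1 and Fpr2 lie wholly to the left of the floor and all 6 macrophage genes to the right of it.

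None of the granule protein genes passed the test between AdipoQ-LPL and Control mice. Prtn3, Elane, Mpo, S100a8, Ltf and Lcn2 passed the floor and were tested with limma over all 20208 clusters. After Benjamini-Hochberg adjustment 0 of these 6 were called at 0.05, against a background of 0.00990% of all clusters. At an unadjusted p under 0.05 there were 0 of 6, where 0.891% of all clusters were higher and 4.74% lower. With so few members, 0 of 6 does not set them apart from these shares. In this fit no member met the thresholds of the study, a minimum fold change with an unadjusted p under 0.02. Of all clusters 0.584% met them. S100a9, Ngp and Camp had mean values under 5 in both genotypes and were not tested. With the run as a block 0 of 6 were again called, against 0.00990%, and 1 had an unadjusted p under 0.05, Prtn3, where 5.87% of clusters were higher and 2.50% lower at that p. The median difference of the 9 members was -0.01, beside -0.08 over all tested clusters. With the run as a block it was 0.04, beside 0.01.

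**Figure D2:**
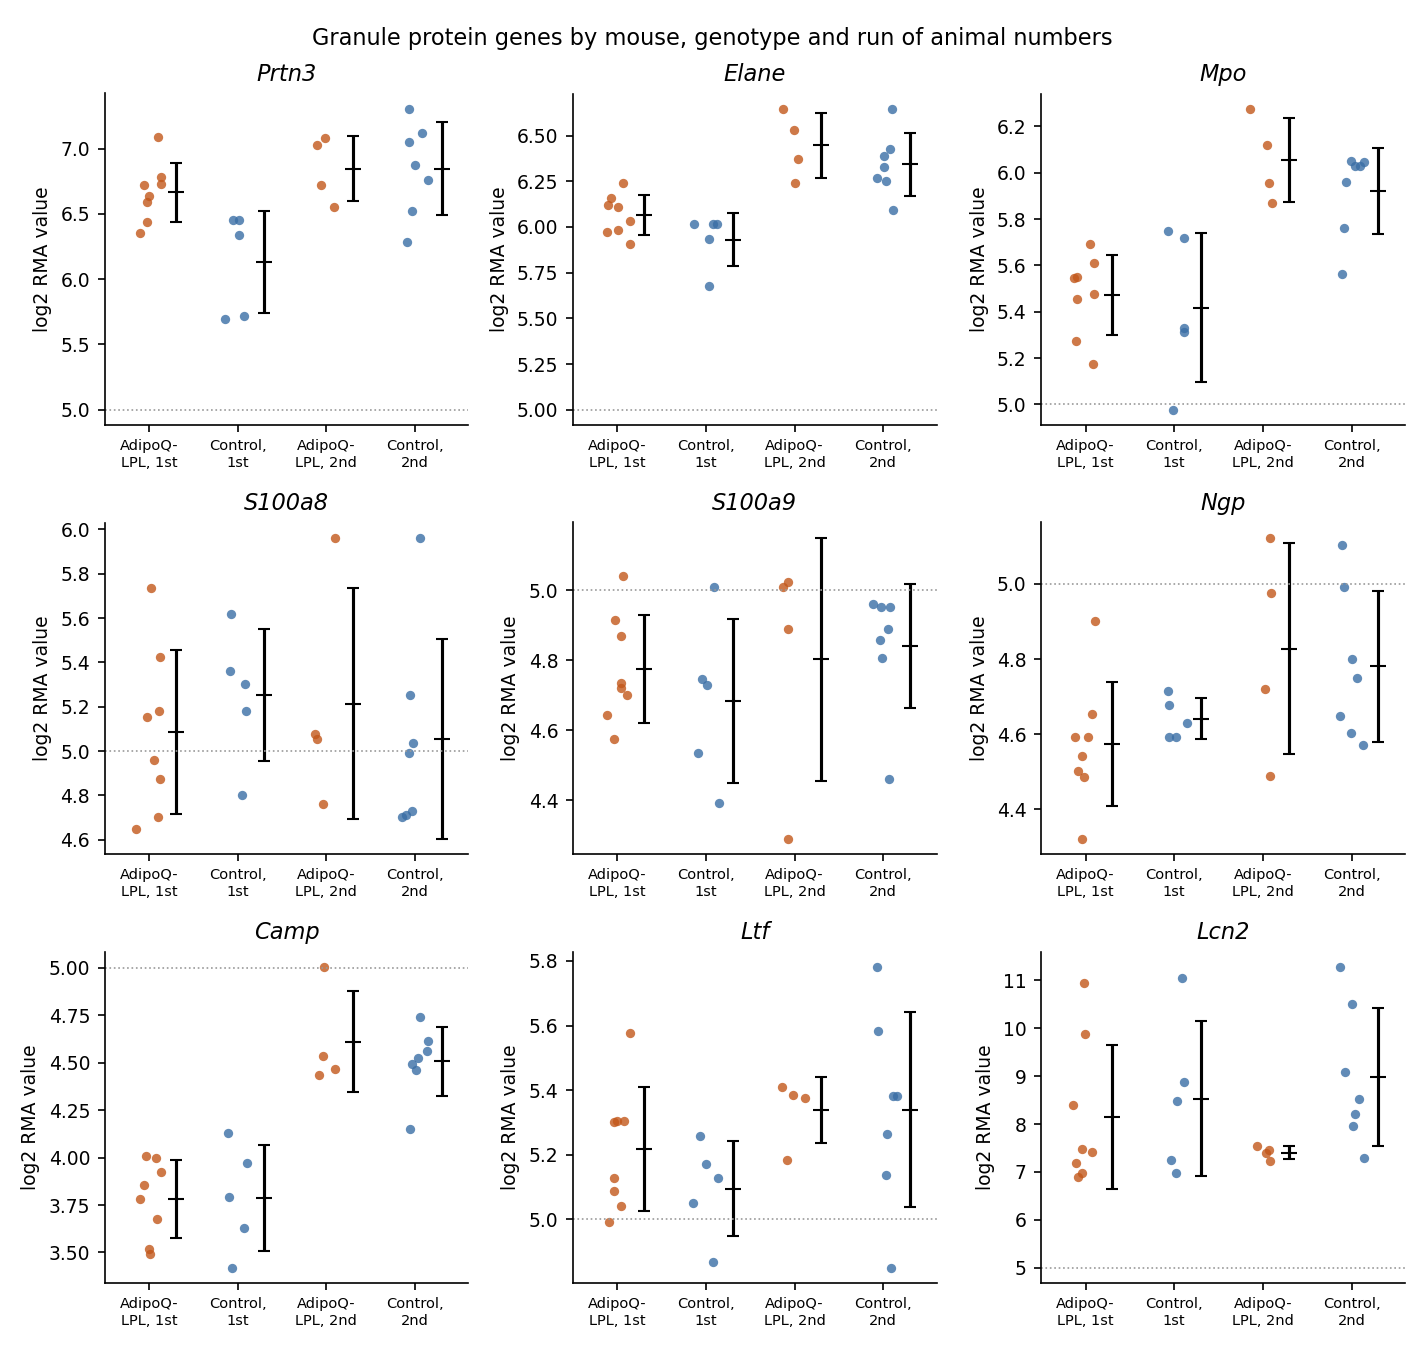
Log2 RMA values (vertical axis) of the 9 genes in each mouse, by genotype within the first (1st) and second (2nd) run of animal numbers. Points are mice, bars are mean ± SD, and the dotted line is the floor of 5. Genotypes overlap in every panel, Prtn3 has 2 low Control mice in the first run, and Lcn2 spans the widest range, from 6.89 to 11.29.

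Among the primary granule members, Prtn3 had the largest difference. It encodes proteinase 3, a serine protease and the target of autoantibodies in human vasculitis. In the first run, the lowest, median and highest values were 6.35, 6.68 and 7.09 in AdipoQ-LPL mice, and the Control mice had 6.34, 5.70, 5.72, 6.45 and 6.45. Control mice 2 and 3 thus lay below every other mouse of the run, and 6 of 8 AdipoQ-LPL mice lay above the highest Control mouse. In the second run the AdipoQ-LPL mice had 6.56, 6.72, 7.08 and 7.03, and the Control mice had 6.28, 6.87 and 7.31 as the lowest, median and highest values. There the Control mice covered the whole range of the AdipoQ-LPL mice. Over all mice Prtn3 averaged 6.73 ± 0.24 in AdipoQ-LPL and 6.55 ± 0.51 in Control mice (SD, n = 12 each), a difference of 0.18 (SE 0.15, limma adjusted p = 0.699).

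The difference in Prtn3 lay in the first run. It was 0.53 there and 0.00 in the second run, by a two-sided exact permutation test with p = 0.00699 and p = 0.997. These are 2 of 18 such tests, and by limma within the first run the p of Prtn3 adjusted over all clusters was 0.496, while 8.10% of clusters had an unadjusted p under 0.05. Leaving out each mouse of the first run in turn kept the difference between 0.43 and 0.62. The difference between runs, -0.53, did not pass the test of the interaction (unadjusted limma p = 0.0425, adjusted p = 0.625), and 0.00% of clusters passed it. With the run as a block Prtn3 was 0.29 higher in AdipoQ-LPL mice (adjusted p = 0.579).

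Elane, which encodes neutrophil elastase, and Mpo, which encodes the peroxidase that makes hypochlorous acid, differed less. Elane averaged 6.19 ± 0.23 in AdipoQ-LPL mice and 6.17 ± 0.26 in Control mice, and Mpo averaged 5.67 ± 0.33 and 5.71 ± 0.35 in AdipoQ-LPL and Control mice (SD, n = 12 each). In the first run Elane had a lowest, median and highest value of 5.91, 6.07 and 6.24 in AdipoQ-LPL mice, and the Control mice had 5.94, 6.01, 5.68, 6.01 and 6.01. The low value was again that of Control mouse 3. Of 8 AdipoQ-LPL mice 5 lay above the highest Control mouse, and the difference of 0.14 had an exact permutation p of 0.0816. In the second run Elane had 6.24, 6.53, 6.65 and 6.37 in AdipoQ-LPL mice and 6.09, 6.33 and 6.65 as the lowest, median and highest values in Control mice, a difference of 0.10 (exact permutation p = 0.379).

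Mpo followed the run more than the genotype. In the first run its lowest, median and highest values were 5.17, 5.51 and 5.69 in AdipoQ-LPL mice, against 5.31, 5.72, 5.33, 4.98 and 5.75 in Control mice. In the second run it had 6.28, 6.12, 5.96 and 5.87 in AdipoQ-LPL mice, and a lowest, median and highest value of 5.56, 6.03 and 6.05 in Control mice. The genotypes overlapped in both runs. Its difference was -0.04 over all mice (adjusted p = 0.892) and 0.09 with the run as a block (adjusted p = 0.774), so that its sign depended on how the run was treated. Of the other genes in the primary granule list, Bpi, which encodes a protein that binds endotoxin, had a difference of -0.30 (adjusted p = 0.691), and Ctsg, which encodes cathepsin G, was under the floor.

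**Figure D3:**
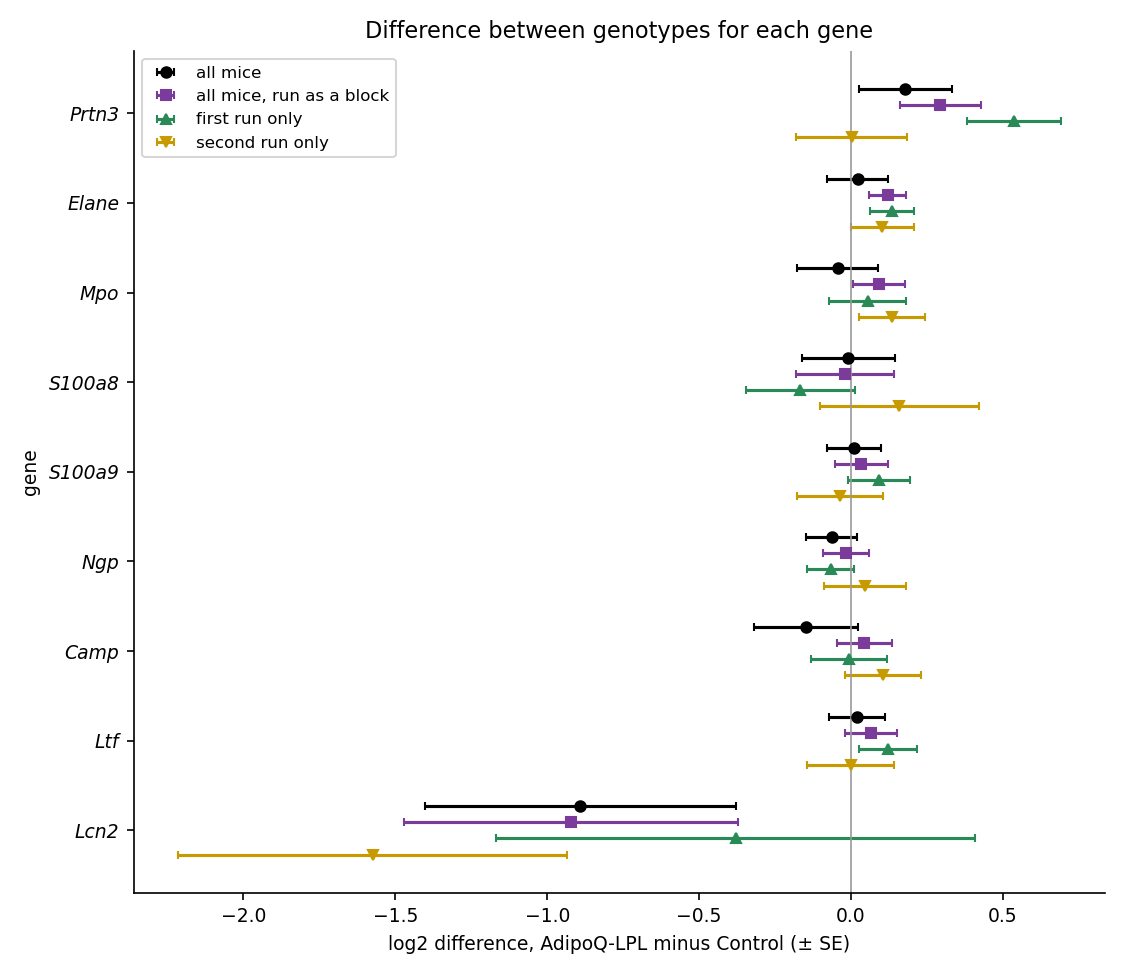
Log2 difference, AdipoQ-LPL minus Control (horizontal axis, ± SE from limma), of each gene over all mice, with the run as a block, and within each run. Prtn3 is at 0.53 in the first run and 0.00 in the second, and Lcn2 has the widest errors and is below 0 in all 4 fits.

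Promoter sequences of the 9 genes were read from RefSeq (build GRCm38.p6) to show what the members that sit in one granule share. Each window ran from 250 bases before to 50 bases after the start of the gene, and all 9 genes had one. The myeloid transcription factor PU.1 binds sites with the core AGGAAGT, which was searched on both strands and was present in 9.35% of 32851 windows. It was present in Prtn3, Elane, Mpo and S100a8, which are all 3 primary granule members and 1 of the calprotectin genes. A match is a description of these letters and not a bound site. The stretches round the match are given 5′ to 3′ on the strand of the gene, with the match in capitals.
Prtn3 (chr10:79879553-79879599, plus strand, 94 bases before the start): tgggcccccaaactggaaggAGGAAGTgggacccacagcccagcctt
Elane (chr10:79886208-79886254, plus strand, 84 bases before the start): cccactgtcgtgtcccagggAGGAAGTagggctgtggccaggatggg
Mpo (chr11:87793541-87793587, plus strand, 223 bases before the start): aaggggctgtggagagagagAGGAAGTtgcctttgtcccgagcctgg
S100a8 (chr3:90668879-90668925, plus strand, 172 bases before the start, match on the opposite strand): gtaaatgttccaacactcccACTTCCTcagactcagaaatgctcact
Spi1, which encodes PU.1, averaged 7.83 in AdipoQ-LPL mice and 7.80 in Control mice (difference 0.02, adjusted p = 0.923).

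Lcn2, which encodes lipocalin 2, a secreted protein that binds bacterial siderophores, varied most between mice. It averaged 7.90 ± 1.254 in AdipoQ-LPL mice and 8.79 ± 1.46 in Control mice (SD, n = 12 each), a difference of -0.89 that did not pass the test (SE 0.51, adjusted p = 0.691). Its spread within genotype and run, an SD of 1.39, was larger than that of 99.7% of the tested clusters, whose median was 0.158. From the lowest to the highest mouse it spanned 21.1-fold. In the first run the lowest, median and highest values were 6.89, 7.45 and 10.95 in AdipoQ-LPL mice, and the Control mice had 6.97, 7.26, 11.05, 8.48 and 8.89. In the second run the AdipoQ-LPL mice had 7.46, 7.39, 7.55 and 7.22, and the lowest, median and highest Control values were 7.30, 8.53 and 11.29. High values thus occurred in both genotypes in the first run, and in the second run 6 of 7 Control mice lay above all 4 AdipoQ-LPL mice. The differences were -0.38 and -1.57 in the first and second run, with two-sided exact permutation p-values of 0.662 and 0.0545. Without Control mouse 3 the first-run difference was 0.25, the opposite sign. By limma within the second run the adjusted p of Lcn2 was 0.490, and 9.38% of clusters had an unadjusted p under 0.05.

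The 6 mice with the highest Lcn2 were those with the highest values of the epithelial genes Cdh1 and Epcam. The 5 genes most like Lcn2, by Pearson correlation of values centred within each run over 24 mice, were Srd5a2 (0.94), Gm609 (0.93), Prom1 (0.93), Acsbg1 (0.93) and Tgfa (0.93). Srd5a2 encodes a steroid reductase of the male reproductive tract, and Prom1 and Tgfa are expressed in many epithelia. Cdh1, which encodes the epithelial adhesion protein E-cadherin and was chosen after the values were seen, was at 7.05 to 8.76 in 6 mice and at most 6.59 in the other 18. The 6 were AdipoQ-LPL mice 8 and 10 and Control mice 3, 6, 7 and 11, and they were also the 6 with the highest Lcn2. Their Lcn2 values were 10.95 and 9.89 in the AdipoQ-LPL mice and 11.05, 9.09, 11.29 and 10.50 in the Control mice. Epcam, another epithelial gene, was at 5.93 to 9.03 in these mice and at most 5.65 in the other 18. Cdh1 and Lcn2 had an r of 0.89 and 0.76 in the first and second run (permutation p = 0.00042 and 0.0205). Their rho was 0.43 and 0.40 (permutation p = 0.141 and 0.225). Control mouse 5, next in the order of Lcn2 at 8.89, had Cdh1 at 5.92 and Epcam at 3.98.

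Without the mice with Cdh1 at 6.8 or more, Lcn2 averaged 7.40 ± 0.42 in 10 AdipoQ-LPL mice and 7.95 ± 0.70 in 8 Control mice, a difference of -0.55 (adjusted p = 1.00). By limma, Lcn2 was in this fit lower at an unadjusted p under 0.05, as were 138 of 20208 clusters. It was so with the run as a block too, as were 494 clusters. The 6 mice left out were also the 6 with the highest Lcn2, and the limit was set after the values were seen. These fits are thus cut on Lcn2 itself, and their p-values are no test of it. Adam7, a gene of the epididymis, which lies against perigonadal fat, was at 4.06 to 6.08 in AdipoQ-LPL mice and at 4.32 to 8.17 in Control mice. Over the whole epididymis list of 7 genes, the mean of a mouse ran from 4.56 to 5.41 in AdipoQ-LPL mice and from 4.66 to 7.34 in Control mice, and 6 of 7 genes had a difference below 0, none called. Without the 7 mice with Adam7 at 5.5 or more (2 AdipoQ-LPL and 5 Control mice) the difference in Lcn2 was -0.50 (adjusted p = 0.672). Crisp1 and Spink8, also of this list, were at 13.90 and 12.00 in Control mouse 6, where Adam7 was at 4.51, so that this mouse, with high Lcn2, was kept when mice were left out by Adam7. Crisp1 and Lcn2 had an r of 0.13 and a rho of 0.09 in the first run (permutation p = 0.721 and 0.778) and of -0.03 and -0.05 in the second (permutation p = 0.931 and 0.880). Adam7 and Lcn2 had an r of 0.72 and a rho of 0.78 in the first run (permutation p = 0.00690 and 0.00236). In the second run r was 0.84 and rho 0.30 (permutation p = 0.0123 and 0.371). Without the 2 mice farthest from the median of Adam7, the r of the second run was -0.20. This pair too was chosen after its values were seen. The part of epithelial or epididymal RNA in the values of Lcn2 was not tested.

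**Figure D4:**
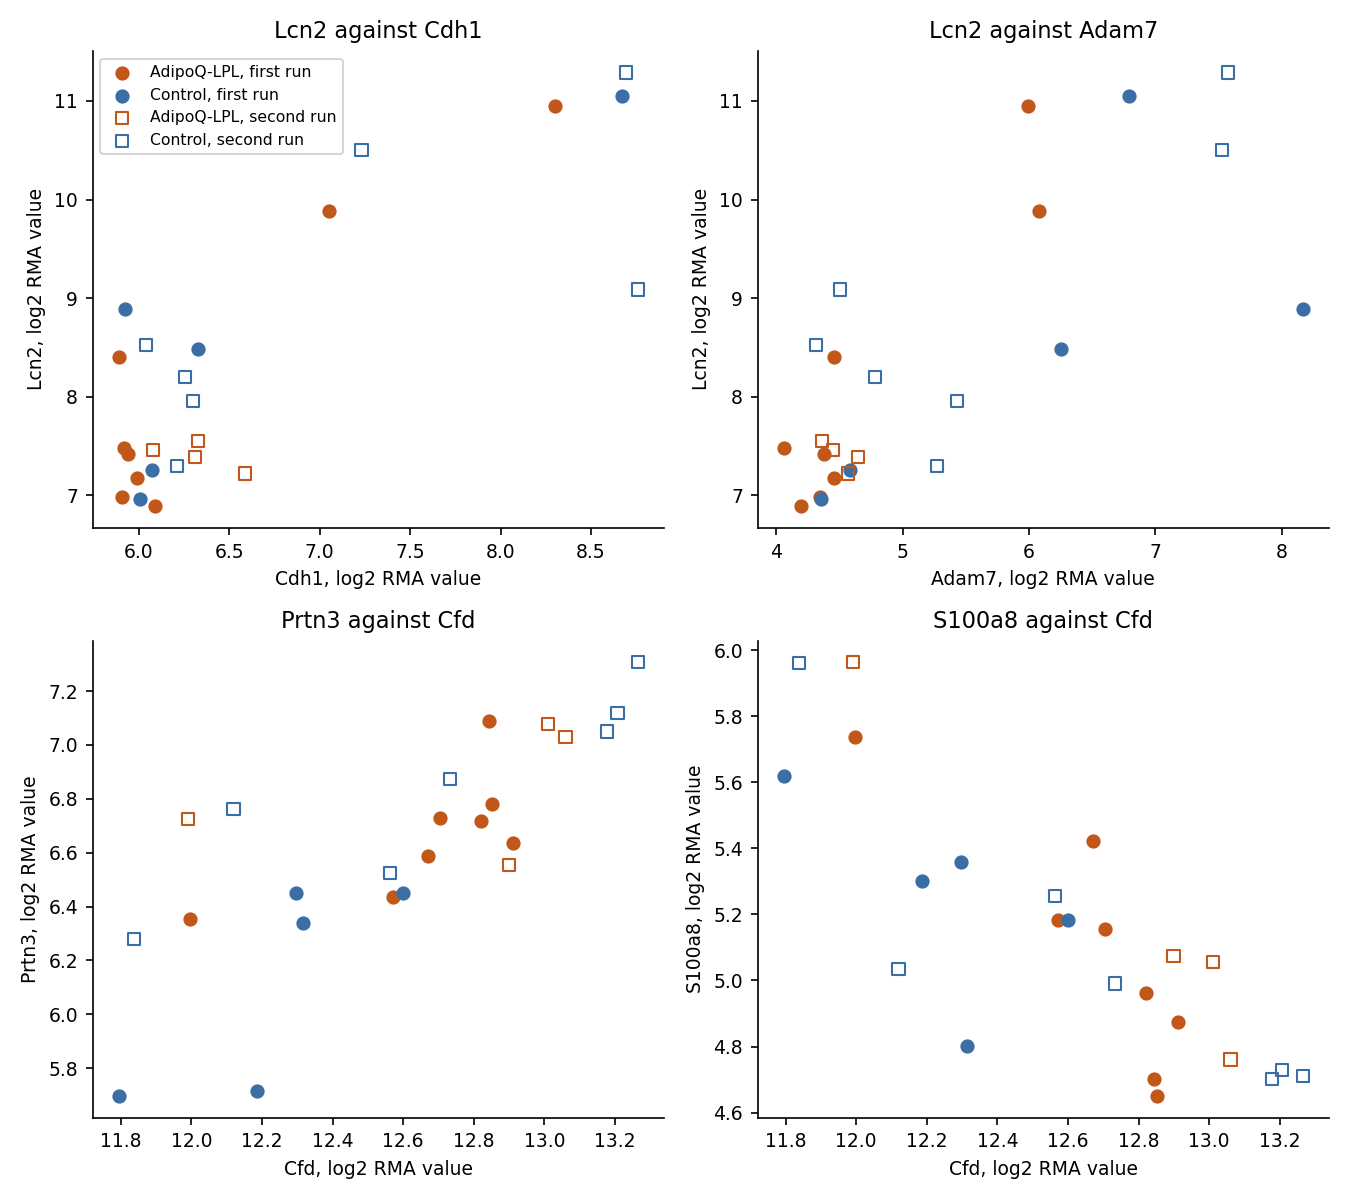
Log2 RMA values of Lcn2 against Cdh1 and against Adam7, and of Prtn3 and S100a8 against Cfd (horizontal axes Cdh1, Adam7, Cfd and Cfd). Each point is a mouse, filled circles are the first run and open squares the second. The 6 mice with Cdh1 above 7 are the 6 with the highest Lcn2, Prtn3 is higher and S100a8 lower where Cfd is higher.

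The calprotectin genes S100a8 and S100a9, whose proteins form a dimer that binds calcium and zinc and lie side by side on chromosome 3, did not differ between genotypes by more than their spread. S100a8 averaged 5.13 ± 0.40 in AdipoQ-LPL mice and 5.14 ± 0.39 in Control mice, a difference of -0.01 (SD, n = 12 each, adjusted p = 0.983). S100a9 averaged 4.78 ± 0.22 in AdipoQ-LPL mice and 4.77 ± 0.21 in Control mice and was under the floor. S100a8 was high in single mice of both genotypes, at 5.74 in AdipoQ-LPL mouse 7, 5.96 in AdipoQ-LPL mouse 2, 5.62 in Control mouse 2 and 5.96 in Control mouse 7. S100a9 was not high in these mice, at 4.57, 4.89, 4.75 and 4.46. The 2 genes did not vary together, with a Pearson r of -0.43 in the first run and -0.18 in the second. The SD of S100a8 within genotype and run, 0.41, was larger than that of 95.1% of tested clusters.

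The secondary granule genes Ngp, Camp and Ltf lay close to or under the floor. Ngp encodes neutrophilic granule protein and Camp the antimicrobial cathelicidin, and Ltf encodes lactoferrin, which binds iron. Ngp averaged 4.66 ± 0.23 in AdipoQ-LPL mice and 4.72 ± 0.17 in Control mice. Camp averaged 4.06 ± 0.46 in AdipoQ-LPL mice and 4.21 ± 0.43 in Control mice. Ltf averaged 5.26 ± 0.17 in AdipoQ-LPL mice and 5.24 ± 0.27 in Control mice, a difference of 0.02 (SD, n = 12 each, adjusted p = 0.934). Within runs the differences of these 3 genes ran from -0.07 to 0.12, with exact permutation p-values of 0.258 or more. Camp was at 3.49 to 4.01 in AdipoQ-LPL mice and 3.42 to 4.13 in Control mice of the first run, and at 4.43 to 5.01 and 4.15 to 4.74 in AdipoQ-LPL and Control mice of the second. The genotypes overlapped in both runs, and the runs did not overlap. Of the other secondary granule genes, Cd177, whose human protein presents proteinase 3 on the neutrophil surface, had a difference of -0.08, Chil3 of 0.05 and Olfm4, under the floor, of 0.05.

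The transcription factors of the C/EBP family, of which C/EBP epsilon drives the secondary granule genes, bind sites close to TTGCNNAA. This motif, searched on both strands, was present in 10.8% of the windows described above. It was present in S100a9, Ngp, Ltf and Lcn2, which are 3 of the 4 secondary granule members and the other calprotectin gene, and none of these 4 held AGGAAGT. Camp held neither motif.
S100a9 (chr3:90695930-90695971, minus strand, 236 bases before the start): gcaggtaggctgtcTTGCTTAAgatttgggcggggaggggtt
Ngp (chr9:110419650-110419697, plus strand, 138 bases before the start): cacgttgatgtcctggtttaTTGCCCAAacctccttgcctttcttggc
Ltf (chr9:111019197-111019244, plus strand, 75 bases before the start, match on the opposite strand): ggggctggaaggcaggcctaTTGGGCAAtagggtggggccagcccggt
Lcn2 (chr2:32387928-32387975, minus strand, 216 bases before the start): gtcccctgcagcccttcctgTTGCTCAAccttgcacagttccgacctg
Ngp held a further match 11 bases before the start, on the opposite strand. Cebpe averaged 6.09 in AdipoQ-LPL mice and 6.07 in Control mice (adjusted p = 0.917), and Cebpa, which adipocytes also express, averaged 10.77 and 10.83 in AdipoQ-LPL and Control mice (adjusted p = 0.790).

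The members differed in how far they moved between the runs of animal numbers. Second minus first run, with genotype in the fit, Mpo was 0.54 higher, Prtn3 0.46 and Elane 0.40 (adjusted p = 4.964e-06, 0.00300 and 3.154e-06), beside a median of 0.33 over the tested clusters. Ltf was 0.19 higher (adjusted p = 0.0509), and S100a8 and Lcn2 had shifts of -0.04 and -0.12 (adjusted p = 0.811 and 0.844). Of the untested members Camp had the largest shift, 0.77. The array medians moved the same way, and their part in these shifts was not tested.

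The 9 genes did not vary together across mice as one set. Over all 36 pairs in each of the 2 runs, Pearson's r ran from -0.76 to 0.69 with a median of -0.02, and 35 of 72 values were above 0. By permutation tests 4 of the 72 had an unadjusted p under 0.05, and 0 of 72 passed after adjustment over all 72, with either Pearson's r or Spearman's rho. Prtn3 and Elane, adjacent genes on chromosome 10, had an r of 0.69 and a rho of 0.75 in the first run (permutation p = 0.00964 and 0.00372, adjusted p = 0.313 and 0.135), and 0.50 in the second (r). Prtn3 and S100a8 ran in opposite directions in both runs. Their r and rho were -0.62 and -0.64 in the first run (permutation p = 0.0225 and 0.0203) and -0.76 and -0.81 in the second (permutation p = 0.00526 and 0.00375), all with an adjusted p of 0.135 or more. Without the 2 mice farthest from the median of Prtn3, r was -0.59 in the first run and -0.57 in the second. Mpo and Lcn2 had an r of -0.72 in the second run, which was -0.14 without the 2 farthest mice and so rested on them.

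**Figure D5:**
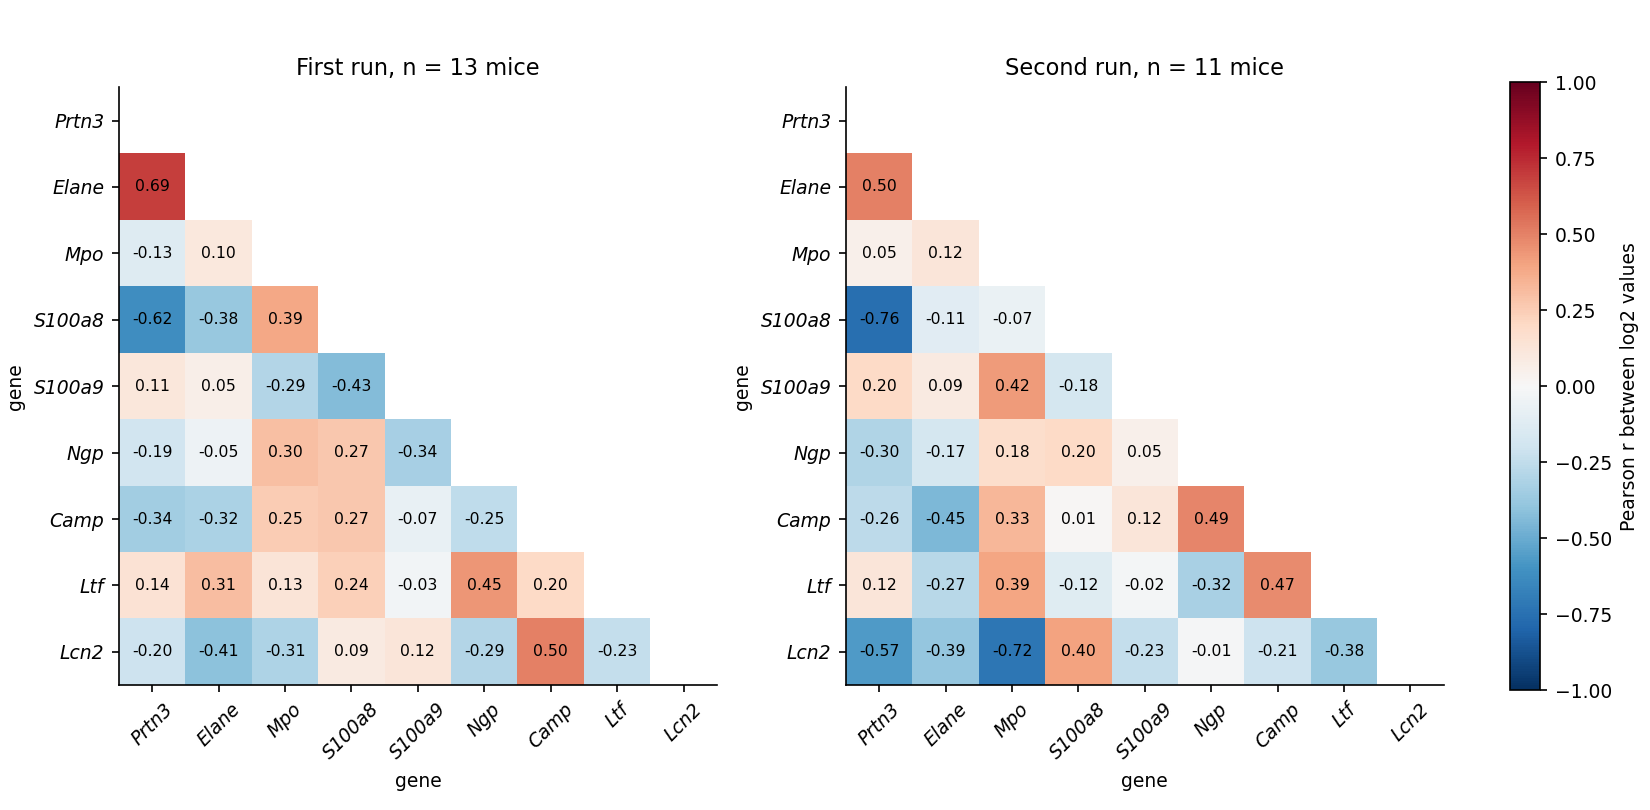
Pearson r between the log2 values of each pair of the 9 genes across the mice of the first run and of the second run. Prtn3 with Elane is at 0.69 and 0.50, Prtn3 with S100a8 is at -0.62 and -0.76, and S100a8 with S100a9 is below 0 in both.

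The genes most like each member were for the most part not granule genes. Among 18665 genes, and by the same run-centred correlation as for Lcn2, Prtn3 was most like Lrp1 (0.84), Cited2 (0.83), Ddx58 (0.83), Gramd4 (0.81) and Isg20 (0.81). Lrp1 encodes a receptor that takes up lipoprotein remnants and proteases, and Ddx58 and Isg20 are interferon-induced genes. Elane ranked 633rd among the genes most like Prtn3, and Prtn3 ranked 116th among those most like Elane. Elane was most like Dcst1 (0.75), Wdtc1 (0.73), Abca4 (0.72), Brox (0.72) and Dyrk1b (0.72), and Mpo was most like Sspo (0.80), S1pr5 (0.78), Gm568 (0.77), Acr (0.76) and Mir615 (0.75). S100a8 was most like D3Bwg0562e (0.85), Slc5a7 (0.84), Elp3 (0.82), Otop1 (0.81) and Dusp15 (0.81).

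S100a9 was most like Mir3473d (0.72), 9930012K11Rik (0.71), 5033417F24Rik (0.70), Abhd8 (0.69) and Gm10413 (0.69). Ngp was most like Klhl10 (0.74), Nppa (0.72), Fscn3 (0.72), Emid2 (0.71) and Gm10485 (0.70), and Camp was most like Sqstm1 (0.74), Rpl37 (0.72), Creg2 (0.71), Mxi1 (0.69) and Zranb3 (0.69). Ltf was most like Nyx (0.76), Gm11570 (0.68), Syngr3 (0.67), E030047D23Rik (0.67) and Gm10847 (0.66). No other member stood among the 5 genes most like any member. Only genes past the floor were ranked, so S100a9, Ngp and Camp could not stand there.

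Prtn3 and Elane stand next to Cfd, which encodes adipsin, a serine protease of the complement system that adipocytes secrete. The levels of Cfd ran from 11.99 to 13.06 in AdipoQ-LPL mice and from 11.79 to 13.27 in Control mice. Cfd had the same pattern by run as Prtn3, with a difference of 0.43 in the first run and 0.04 in the second (exact permutation p = 0.0288 and 0.891), and 6 of 8 AdipoQ-LPL mice of the first run lay above the highest Control mouse. Across mice Prtn3 and Cfd had an r of 0.84 and a rho of 0.89 in the first run and of 0.78 and 0.87 in the second, with permutation p-values of 0.000340, 0.000120, 0.00489 and 0.000940. The r without the 2 mice farthest from the median of Cfd was 0.83 and 0.69. S100a8, on another chromosome, ran against Cfd, with an r of -0.76 and a rho of -0.78 in the first run and of -0.88 and -0.86 in the second (permutation p = 0.00311, 0.00264, 0.000350 and 0.00111). These pairs were chosen after their values were seen, among 26 values of r computed with other genes. Elane, which lies between Prtn3 and Cfd, had an r with Cfd of 0.49 in the first run and 0.16 in the second.

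The other genes that flank a member and were matched by name had differences from -0.35 to 0.11, and none was called. The peroxidase gene Lpo, next to Mpo, had 0.11 and Tspoap1, on the other side, 0.00. S100a7a and Pglyrp4, on either side of the calprotectin genes, had -0.13 and -0.11, and Ptpn23 and Klhl18, on either side of Ngp, had -0.20 and -0.08. Nme6 and Cdc25a, which flank Camp, had -0.35 and -0.15, Rtp3 and Ccrl2, which flank Ltf, had -0.11 and -0.07, and 1110008P14Rik and Ptges2, which flank Lcn2, had -0.15 and -0.05. Pglyrp4 was under the floor and was not tested.

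Other genes of neutrophil function also gave no calls. In the 5 neutrophil lists 19 of 34 genes were tested, 0 were called with or without the run as a block, and the median difference was -0.03 over all mice and 0.05 with the block. In the tertiary granule list Itgam, the integrin CD11b that macrophages share, had a difference of 0.27 (adjusted p = 0.691), and Mmp9, a gelatinase, had -0.10 (adjusted p = 0.784). Among the 12 surface genes of mature neutrophils Ly6g, Cxcr2 and Csf3r had differences of -0.18, -0.12 and -0.08. All 6 genes of the NADPH oxidase, the complex that makes superoxide in neutrophils and macrophages, passed the floor and 0 were called or had an unadjusted p under 0.05 over all mice. With the run as a block all 6 had differences above 0, with a median of 0.17, and Ncf1 and Cybb had 0.22 and 0.24 (adjusted p = 0.572 and 0.567). The 6 macrophage genes had differences above 0 too, with a median of 0.19 over all mice and 0.23 with the block, and 0 were called.

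The genes that draw neutrophils into tissue, those that inhibit their proteases and the acute phase genes of fat gave no calls either. Of 8 recruitment genes 5 were tested, and Cxcl12 and Ppbp, both chemokines, had differences of -0.13 and -0.28 (both adjusted p = 0.691). All 5 protease inhibitor genes measured had differences above 0 over all mice, from 0.00 to 0.10, and among them Slpi, which inhibits elastase, had 0.10 (adjusted p = 0.801) and Serpinb1a, which inhibits elastase, cathepsin G and proteinase 3, had 0.02 (adjusted p = 0.959). Of the 6 acute phase genes Ptx3, a pentraxin kept in neutrophil granules and made by stromal cells, had a difference of -0.32 (adjusted p = 0.691), and Saa3 had -0.20 (adjusted p = 0.844), with values of 6.47 to 11.66 between mice. In the granulocyte transcription factor list Cebpb had -0.19 and Gfi1 0.08 (adjusted p = 0.691 and 0.708). The markers of B cells, a cell type that fat also holds, had list means of 5.505 to 6.43 in AdipoQ-LPL mice and 5.55 to 7.89 in Control mice, and 0 of 4 were called.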

How the data were processed

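RNA of perigonadal fat from 24 mice was labelled with the Affymetrix WT Plus kit and run on mouse exon arrays, and per the labels RMA and Partek were used by the authors to normalize and analyse the arrays, with versions not stated in the labels or the paper. The deposited values are log2 intensities of 41345 transcript clusters, and gene symbols came from a deposited workbook whose group means, fold changes and p-values of the authors' own comparison were not used. A symbol was given for 27037 clusters, and the 20208 of them whose mean reached 5 in the AdipoQ-LPL or the Control mice entered a two-sided test with limma 3.58.1 in R 4.3.3, over all 24 mice without further terms, with Benjamini-Hochberg adjustment over all 20208. A gene is represented by its cluster of highest mean. Within a run, genotypes were compared by exact permutation of the mice, and correlations by 100000 permutations (Python 3.11.15, numpy 2.4.6, scipy 1.17.1, pandas 2.3.3). Figures used matplotlib 3.10.9, and array weights and random blocks used statmod 1.5.0.

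The members and lists were chosen with earlier results of these data known, and Prtn3 stands in a gene list that the study drew from these same mice, so none of this is independent evidence. Named genes were all members, up to 4 genes of lowest p in each list, the genes on either side of a member in RefSeq, the 5 genes most like each member, and Lpl; others are said to have been chosen after their values were seen. Some of the genes that this rule names are not reported here. Replicate numbers were not treated as pairs of mice in the fit over all mice. Alternatives were no floor, no moderation of the variance, an intensity trend with a robust prior, array weights, centring, quantile normalization, the run as a fixed or random block, each run alone, omission of the AdipoQ-LPL mice numbered 422 to 437, a replicate block, the mean of all clusters of a gene and omission of each mouse. Omission of mice by Adam7 or Cdh1 was added after the data had been seen. The methods were tested on simulated data. Precision is limited by how many arrays there are, and protein sequences were not used here.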

Additional observations from a re-analysis of the deposited data

Results flagged for a closer look

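In each of the 36 groups formed by member, genotype and run, the highest and lowest mouse were compared with the rest by the gap to the nearest mouse over the range, and 3 groups had a mouse that stood apart by Dixon's 95% value. Chance gives about 1 in 20 groups. Ltf in the second run was at 5.18 in AdipoQ-LPL mouse 2, where the other 3 AdipoQ-LPL mice had 5.37 to 5.41. Elane in the first run was at 5.68 in Control mouse 3, where the other 4 Control mice had 5.94 to 6.01. S100a9 in the second run was at 4.46 in Control mouse 7, where the other 6 Control mice had 4.81 to 4.96. Control mice 3 and 7 were also the mice with the highest Lcn2 of their runs, at 11.05 and 11.29.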

How the results depend on the processing

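Of the 41 alternatives, only array weights called any member, and they gave 14984 called clusters where the fit over all mice gave 2. Array weights called 2 members, Elane at -0.22 (adjusted p = 0.0114) and Mpo at -0.33 (adjusted p = 0.00384), and gave Prtn3 -0.11, Ltf -0.063 and S100a8 0.082. The cause was not tested. Lcn2 was below 0 in all 41, from -1.57 in the second run to -0.37 without the mice with Adam7 at 5.5 or more and with the run as a block. Prtn3 was above 0 in all but array weights. At the thresholds of the study, Prtn3 passed in the first run alone, where 104 of 20208 clusters passed as higher and 116 as lower. Lcn2 passed as lower without AdipoQ-LPL mouse 8, where 158 clusters passed as lower and 17 as higher. With array weights 1 member passed as lower, and under the other alternatives none passed.

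Members with small differences changed sign. Mpo was 0.060 with centring, 0.023 with quantile normalization, 0.091 and 0.086 with the run as a fixed or random block, 0.055 and 0.14 in the first and second run, 0.14 without the AdipoQ-LPL mice numbered 422 to 437, and 0.021 and 0.053 with the block and without the mice chosen by Adam7 or Cdh1. S100a8 was 0.10 with centring, 0.064 with quantile normalization, 0.16 in the second run, 0.011 without the mice numbered 422 to 437, 0.17 and 0.15 without the mice chosen by Adam7 (without and with the block), and 0.13 and 0.12 likewise by Cdh1. Ltf was -0.0016 in the second run, and Ltf and Elane were -0.051 and -0.029 without the mice chosen by Adam7. Omission of single mice gave -0.024 to 0.064 for Elane, -0.11 to 0.00089 for Mpo, -0.085 to 0.066 for S100a8 and -0.016 to 0.069 for Ltf.

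Called clusters numbered 1 with no moderation, in the second run alone and without the mice numbered 422 to 437, 0 without the mice chosen by Adam7 or by Cdh1, and 2 to 3 with a mouse left out. At the thresholds of the study, 118 clusters over all mice became 6784 with array weights, 55 and 54 with the run as a fixed or random block, 220 and 310 in the first and second run, 74 without the mice numbered 422 to 437, 218 and 31 without the mice chosen by Adam7 or Cdh1, 51 by Cdh1 with the block, and 71 to 255 with a mouse left out. With the replicate number as a block 0 clusters and 0 members were called, and 1 of 12 same-numbered pairs of mice correlated above 0.1. Except for number 5, same-numbered mice came from different runs, and these correlations did not remove the shift between runs. They therefore cannot show whether the numbers pair the mice. No correlation between members passed under either of the 2 alternatives run for it, genotype means removed and arrays centred. Values under the floor, and 4 to 8 mice in a genotype within a run, limit what could be detected.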
